A study of Mus musculus with 3 samples.

Results

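This is an account of 43 genes that carry out or restrain programmed cell death, read in peritoneal macrophages of mice given hexavalent chromium. They were taken by symbol in 3 lists: 22 for the transcription factor p53 and its targets, 12 for pro-apoptotic genes and 9 for anti-apoptotic genes. Of these, 41 stood on the array under the listed name, and Xiap and Aen were found through their accession or older symbol (Birc4 and Isg20l1). The 43 genes had 86 probes of 41174 on the array. For 41 genes a probe was well above background (the scanner software's flag) on at least 1 array, out of 14561 such genes in all, and 40 were measured on all 3 arrays.

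The cells came from male Swiss albino mice aged 8 weeks, in 3 groups of 10 animals. All mice, controls included, received 125 µg of lipopolysaccharide into the peritoneum on day 0, which draws macrophages there. On day 4 the treated groups were given chromate, 70 or 35 nmol, along with 100 ng of TPA, a phorbol ester that activates macrophages, and the control group had the same TPA alone. The sample labels give these doses as Cr(VI), the protocol as potassium dichromate. Peritoneal lavage followed 4 days after that injection. Each group had 1 one-colour Agilent array, and whether its RNA came from 1 animal or from a pool is not settled by the labels. No difference below therefore has a replicate check or a p-value.

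The p53 protein is held low in resting cells by the ubiquitin ligase Mdm2, and DNA damage frees it. It then switches on genes that arrest division and repair DNA, and genes that commit the cell to die. Death through mitochondria turns on the Bcl-2 family: Bax and Bak1 open the outer membrane, Bcl2, Bcl2l1 and Mcl1 hold them back, and the small BH3-only proteins (Bbc3, Pmaip1, Bcl2l11, Bad, Bid, Bmf) tip the balance. Cytochrome c, once released, assembles with Apaf1 and Casp9 into the apoptosome. Death receptors such as Fas reach Casp8 through Fadd, and Cflar blocks that step. Hexavalent chromium is reduced inside cells and binds DNA, which is why this pathway is commonly read after exposure to it.

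The p53 protein binds a 10-base consensus, usually in pairs, and these elements mark its direct targets. The consensus, which reads the same on both strands, was searched for in RefSeq promoter windows of build GRCm38.p6, each running from 250 bases before a gene's start to 50 bases after it. Of the 22 p53 genes, 16 had such a window, and 9 of these 16 held an exact match, against 9.55% of the 27025 genes in the table. A pair of decamers spaced by at most 1 base, with at most 3 mismatches over both and the central C and G of each kept, lay in 6 of the 16, against 3.27% of all genes. Among the other lists an exact match was found in 1 of 11 pro-apoptotic genes (Bmf) and in 1 of 9 anti-apoptotic genes (Birc2), and a pair in none. These matches describe sequence alone. The 6 pairs are shown with up to 20 bases on each side. They are matches to the consensus, and whether p53 binds them was not tested. Capitals mark the decamers.
Ccng1 (chr11:40755442-40755501, minus strand): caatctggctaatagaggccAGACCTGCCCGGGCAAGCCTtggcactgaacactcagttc
Bax (chr7:45467059-45467119, minus strand): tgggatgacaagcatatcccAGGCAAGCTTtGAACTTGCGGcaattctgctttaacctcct
Aen (chr7:78895917-78895976, plus strand): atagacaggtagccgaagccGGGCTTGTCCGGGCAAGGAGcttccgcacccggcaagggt
Bbc3 (chr7:16309466-16309525, plus strand): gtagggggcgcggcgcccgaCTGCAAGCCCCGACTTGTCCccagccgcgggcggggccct
Sesn1 (chr10:41887246-41887305, plus strand): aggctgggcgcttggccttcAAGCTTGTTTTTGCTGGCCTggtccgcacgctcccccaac
Trp53 (chr11:69580264-69580323, plus strand): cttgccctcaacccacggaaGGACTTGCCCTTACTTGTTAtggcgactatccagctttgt
The pair in Ccng1 had 1 mismatch and began at position -195, counted from the gene's start. The pair in Bax had 2 mismatches and a spacer of 1 base, and began at position -201. The other pairs had 3 mismatches.

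Promoters of 3 members that differed at least 1.5-fold from the control at 70 nmol are shown next, 1 that was lower and 2 that were higher. Gadd45a, the lower one, had 1 exact decamer, at position -40. Its known p53 element lies in an intron, outside this window. Neither Bak1 nor the Bcl2l1 start listed before the others (of 3 in the table) had an exact decamer in these 250 bases, nor had the window of Cycs, which is not printed. That says nothing about elements elsewhere.
Gadd45a (chr6:67037408-67037657, minus strand): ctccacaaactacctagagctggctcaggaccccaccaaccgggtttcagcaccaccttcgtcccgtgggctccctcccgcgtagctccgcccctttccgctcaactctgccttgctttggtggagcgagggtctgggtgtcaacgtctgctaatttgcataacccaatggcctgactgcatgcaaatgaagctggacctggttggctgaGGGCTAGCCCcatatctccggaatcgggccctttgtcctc
Bak1 (chr17:27028628-27028877, minus strand): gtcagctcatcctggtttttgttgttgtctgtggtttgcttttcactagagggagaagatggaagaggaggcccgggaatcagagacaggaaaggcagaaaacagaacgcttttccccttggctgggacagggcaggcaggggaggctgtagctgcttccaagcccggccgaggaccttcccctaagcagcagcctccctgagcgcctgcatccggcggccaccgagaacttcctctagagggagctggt
Bcl2l1 (chr2:152828490-152828739, minus strand): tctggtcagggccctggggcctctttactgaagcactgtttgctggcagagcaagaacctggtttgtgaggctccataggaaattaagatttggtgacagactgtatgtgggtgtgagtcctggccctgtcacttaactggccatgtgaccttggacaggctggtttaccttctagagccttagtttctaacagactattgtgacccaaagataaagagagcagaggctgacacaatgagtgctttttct

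A level below is the log2 signal of a gene's brightest probe minus the 75th percentile of its array, and a difference is the level on one array minus that on another. Levels of different probes cannot be set against each other. The scanner software's error of a difference was 0.20 for most probes (median over all measured genes), and 2 probes of a gene gave differences with a median SD of 0.11 in each comparison with the control. Both are technical and leave out the spread between animals. Probes well above background made up between 45.1% and 49.1% of each array. Of the 8 macrophage markers, all were well above background on all arrays, with a median difference of 0.04 at 70 nmol and -0.02 at 35 nmol over the 7 measured. They ran both ways at 70 nmol, from -0.51 for Adgre1 to 0.76 for Fcgr1.

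The arrays also differed in markers of other cells, and whether fewer cells of a type or less RNA per cell lay behind this cannot be told apart in bulk RNA. Summed on a linear scale over the markers detected, mast cell genes (7 of 8) stood at 35.0 in the control, 23.0 at 35 nmol and 13.7 at 70 nmol. Red cell genes (5 of 9) stood at 93.4, 16.3 and 53.2 in that order. Fibroblast genes (6 of 6) stood at 9.6, 10.9 and 32.7, and liver genes (8 of 9) at 21.9, 69.5 and 0.4. Detected here means well above background on at least 1 array. Of the fibroblast genes, 4 were well above background in the control and at 35 nmol. Of the liver genes, only 1 (Alb) was at 70 nmol. Genes of large peritoneal macrophages, the resident kind, had a median difference of -1.03 at 70 nmol and -0.22 at 35 nmol (10 measured). For monocytes and small peritoneal macrophages the median was 0.67 at 70 nmol and 0.11 at 35 nmol (6 measured), and for B cells -0.34 and -0.36 (9 measured). Many of the 43 genes are expressed in most of these cells, and the part of such shifts in the members' differences was not tested.

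The first question was whether p53 targets and death genes differed at 70 nmol of chromate from TPA alone. None of the 40 measured members reached 2-fold in either direction, beside 1.63% of the 12541 measured genes upward and 1.08% downward. At 1.5-fold, 4 members were higher and 1 was lower, where 5.55% of all measured genes were higher and 3.83% lower. The 4 were Bcl2l1, Bak1, Pmaip1 and Cycs, and the other was Gadd45a. Several of these calls were lost under other settings: normexp background correction left Bcl2l1 alone, the mean over probes left Pmaip1, Bak1 and Gadd45a, and spike-in scaling left none higher. Counts this small allow no statement that these genes stand apart from the rest of the array.

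At 35 nmol fewer members passed 1.5-fold, as did fewer of all genes. None was 2-fold higher or lower, where 1.12% and 0.298% of 12733 genes were. At 1.5-fold, 0 members were higher (2.96% of all genes) and 1, Perp, was lower (1.92% of all genes). Between the doses, 1 member (Perp) was at least 2-fold higher at 70 than at 35 nmol, where 0.92% of 12388 genes were, and 0 were 2-fold lower, where 0.718% were. At 1.5-fold, 2 were higher (Perp and Bcl2l1) beside 3.67% of all genes, and 0 were lower beside 2.85%. Both comparisons with the control use the same control array.

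**Figure D1:**
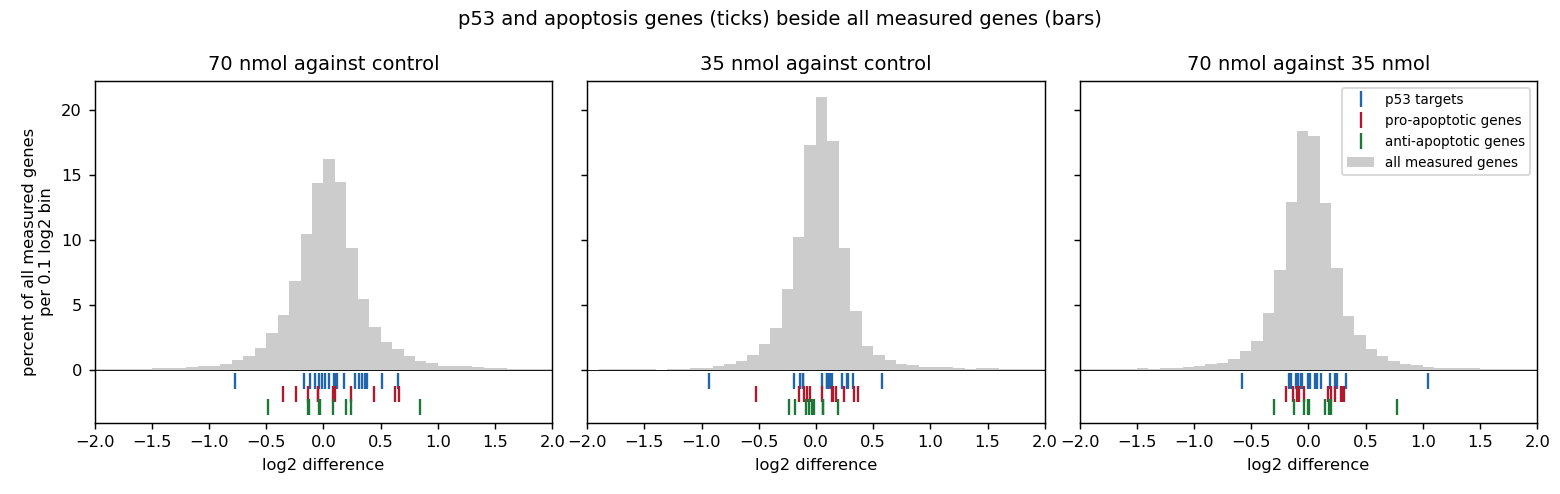
The log2 differences of all measured genes are drawn as bars (percent of genes per bin of 0.1) and those of the measured p53 and apoptosis genes as ticks in 3 rows, for 70 nmol against control, 35 nmol against control and 70 against 35 nmol. The ticks lie within the bulk of the bars, and the outlying ones are Gadd45a at -0.78 and Bcl2l1 at 0.84 at 70 nmol, and Perp at -0.94 at 35 nmol and 1.04 between the doses.

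The 3 lists had small median differences. At 70 nmol the median was 0.11 for p53 targets (19 measured), 0.09 for pro-apoptotic genes (12) and -0.03 for anti-apoptotic genes (9), beside 0.04 for all measured genes. At 35 nmol the medians were 0.11, 0.10 and -0.04, beside 0.04 for all measured genes. Above the median of all genes lay 12 of 19 p53 targets, 7 of 12 pro-apoptotic and 4 of 9 anti-apoptotic genes at 70 nmol. Scaling the arrays on spike-in RNA instead of the 75th percentile shifts every difference by -0.36 (70 nmol) or -0.42 (35 nmol), so positive differences from the control smaller than these turn negative under it, while positions relative to other genes stay.

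**Figure D2:**
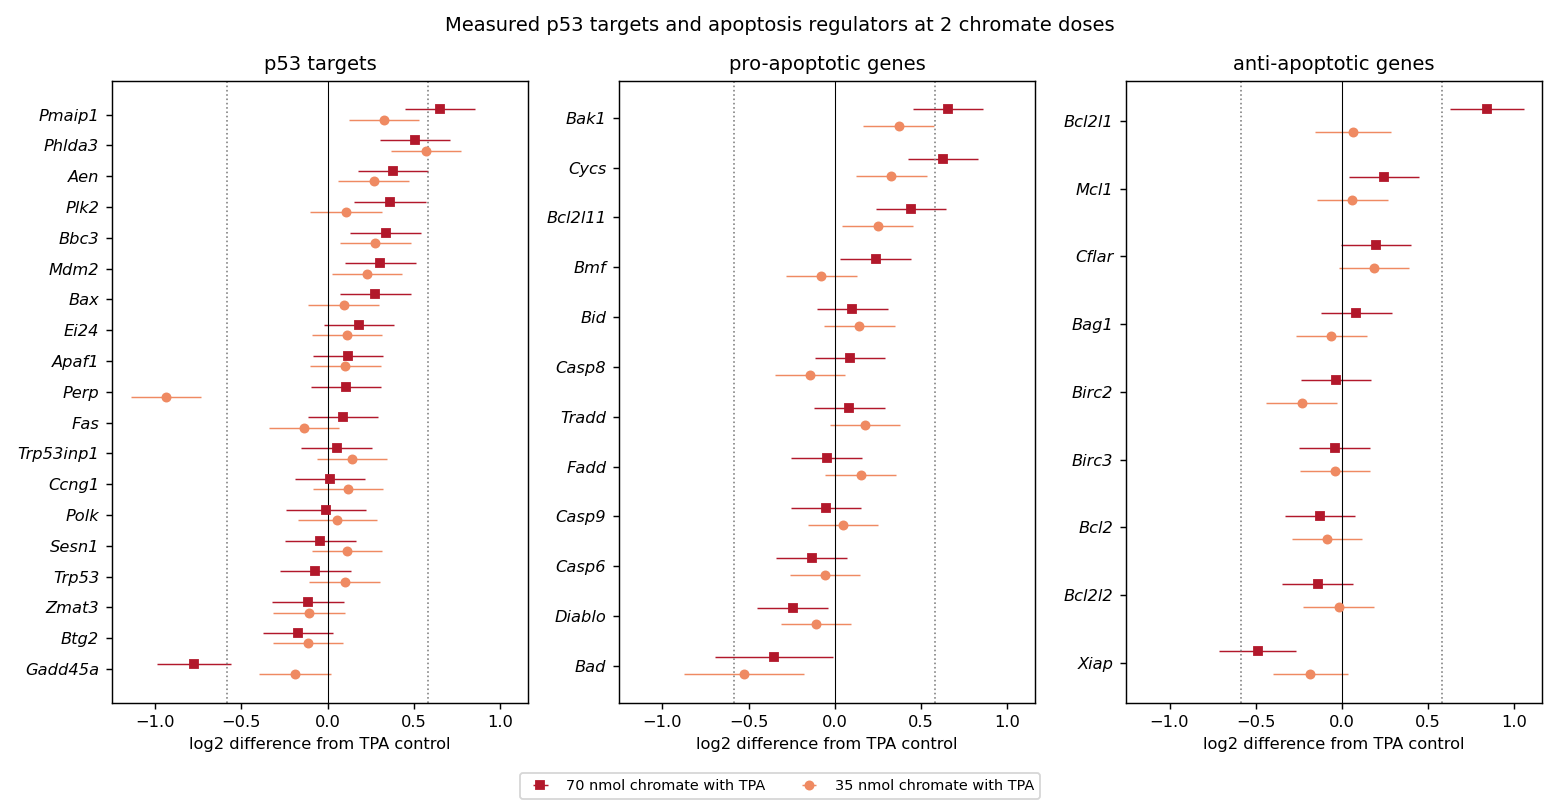
Each measured gene's log2 difference from the TPA control is plotted at 70 nmol (squares) and at 35 nmol (circles), with bars for the scanner error of the difference and dotted lines at 1.5-fold. Bcl2l1 (0.84), Bak1 (0.66), Pmaip1 (0.65), Cycs (0.63) and Gadd45a (-0.78) pass a dotted line at 70 nmol, and Perp (-0.94) at 35 nmol. Under spike-in scaling all points move left, squares by 0.36 and circles by 0.42.

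The control loop of p53 itself lay close to the control. Trp53, which encodes p53 and is regulated mainly through protein stability, had a level of 0.66 in the control, 0.76 at 35 nmol and 0.59 at 70 nmol. It differed by -0.07 at 70 nmol and by 0.10 at 35 nmol, and a second probe gave 0.10 and -0.17. Mdm2, the ligase that p53 induces and that degrades it, stood at 1.22, 1.45 and 1.53 from the control upward. Its difference was 0.31 at 70 nmol and 0.23 at 35 nmol, and its second probe gave 0.27 and 0.24. Both Mdm2 probes were higher at both doses, the brightest by little more than its scanner error of 0.20. The spots of the second probe, 10 on each array, overlapped those of the control at both doses. The SD over spots of its difference was 0.22 at 70 nmol and 0.24 at 35 nmol. The sign of both probes turns under spike-in scaling (-0.06 at 70 nmol for the brightest).

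The p53 targets listed next stayed within 1.5-fold of the control at both doses on their brightest probe. Phlda3, which blocks Akt signalling, had levels of 2.77 in the control, 3.35 at 35 nmol and 3.28 at 70 nmol. The differences of 0.51 at 70 nmol and 0.57 at 35 nmol leave both treated arrays above the control and close to each other. Ccng1, a cyclin that returns p53 to low levels, differed by 0.01 and 0.12 at 70 and 35 nmol although its promoter holds the best decamer pair. Aen, a nuclease of apoptosis, differed by 0.38 and 0.27, Plk2, a kinase of the cell cycle, by 0.36 and 0.11, and Ei24, a protein of the endoplasmic reticulum, by 0.18 and 0.11. Sesn1, an antioxidant protein that restrains mTORC1, differed by -0.04 and 0.11. Trp53inp1, which promotes p53 phosphorylation, differed by 0.05 and 0.14, and the RNA-binding factor Zmat3 by -0.12 and -0.11. Btg2, an inhibitor of proliferation, differed by -0.17 and -0.12, and Polk, a translesion polymerase, by -0.01 and 0.06. On their brightest probes the 6 genes with a decamer pair ranged from -0.07 to 0.38 at 70 nmol and from 0.09 to 0.28 at 35 nmol. None of them reached 1.5-fold on these probes. Dimmer Sesn1 probes gave -0.98 and -0.47 at 70 nmol, and -0.57 and -0.13 at 35 nmol. A dimmer Ccng1 probe gave 0.17 and 0.26 at 70 and 35 nmol.

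Gadd45a, a stress sensor that binds PCNA and p38 activators, was the lowest at 70 nmol among the members measured on both arrays. Its level was -0.26 in the control, -0.45 at 35 nmol and -1.03 at 70 nmol. The difference of -0.78 at 70 nmol (scanner error 0.22) placed it at percentile 1.96 of all measured genes, whereas at 35 nmol it was -0.19. Between the doses it was -0.58, just short of 1.5-fold. Its single probe maps to chr6:66964960-66965019, minus strand (build mm8, as all probe positions here). The difference at 70 nmol was -0.53 with normexp background correction. Cdkn1a, the p53 target that blocks cyclin-dependent kinases and is no member of these lists, differed in the opposite direction, by 0.66 at 70 nmol and 0.40 at 35 nmol.

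Perp, a membrane protein that p53 induces in dying cells and that epithelia need for desmosomes, had the largest difference between doses among the members. Its level was 1.73 in the control, 0.80 at 35 nmol and 1.84 at 70 nmol. The 35 nmol array alone was low, by -0.94 from the control (percentile 0.37 of all genes), while 70 nmol differed by 0.11. Against 35 nmol, 70 nmol was 1.04 higher, at percentile 99.2. Its single probe maps to chr10:18546307-18546366, plus strand. The red cell genes were likewise lowest on the 35 nmol array, as the sums above show. The 5 neutrophil genes measured ran both ways at each dose. They ranged from -1.39 (Cxcr2) to 1.03 (Retnlg) at 70 nmol and from -2.07 (Cxcr2) to 1.98 (Retnlg) at 35 nmol. Their median was 0.46 at 70 nmol and -1.24 at 35 nmol, where 3 lay below the control and 2 above. Summed over the 6 detected, neutrophil genes stood at 7.4 in the control, 4.7 at 35 nmol and 12.7 at 70 nmol. Among them S100a9 had levels of 2.36, 1.11 and 3.37 in that order, and Retnlg -1.59, 0.39 and -0.56. Of the mesothelial markers, Krt19 differed by 0.98 at 70 nmol and -0.08 at 35 nmol, and Msln by 0.68 and 0.25. Against 35 nmol, 70 nmol was 1.06 higher for Krt19 and 0.43 higher for Msln. Wt1 was well above background at 70 nmol only, and Upk3b and Lrrn4 on no array. With 2 of 5 measured, these markers are too few to describe that cell type. Whether these cells had a part in the Perp values was not tested.

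**Figure D3:**
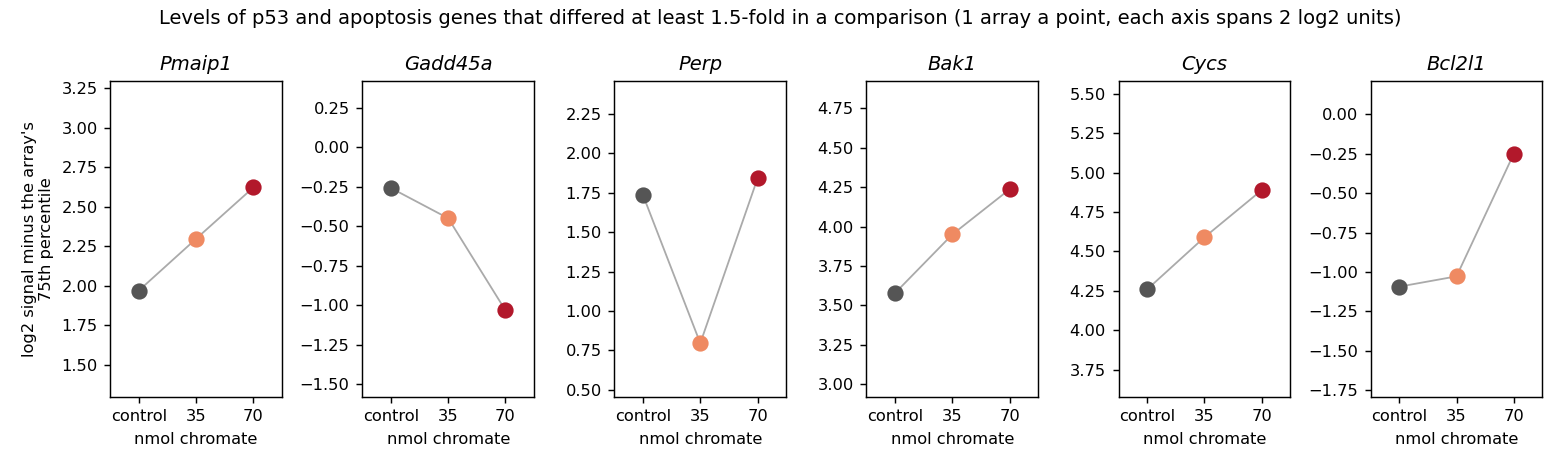
Levels (log2 signal minus the array's 75th percentile) of the 6 genes that differed at least 1.5-fold in a comparison are plotted for control, 35 and 70 nmol, 1 array a point, with each vertical axis spanning 2 log2 units. Pmaip1, Bak1 and Cycs step up by dose, Gadd45a steps down, Perp dips to 0.80 at 35 nmol, and Bcl2l1 is high only at 70 nmol (-0.25). Under spike-in scaling Pmaip1, Bak1 and Cycs no longer lie above the control at 35 nmol.

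Pmaip1 (Noxa), a p53 target and BH3-only protein that disables Mcl1, was the highest measured p53 target at 70 nmol. Its level was 1.97 in the control, 2.30 at 35 nmol and 2.62 at 70 nmol. The difference was 0.65 at 70 nmol and 0.33 at 35 nmol, with a scanner error of 0.20 and a single probe. Bbc3 (Puma), the BH3-only protein with the widest reach among the survival proteins, differed by 0.34 and 0.28. Bax had levels of 2.18, 2.27 and 2.45 from the control upward, with SDs of 0.06, 0.02 and 0.02 over its 9 spots on each array. The lowest spot at 70 nmol (2.42) lay above the highest of the control (2.30), yet the difference of 0.28 is only 1.21-fold. The apoptosome scaffold Apaf1 differed by 0.12 and 0.10, and the death receptor Fas by 0.09 and -0.14. A dimmer Fas probe gave 0.31 and 0.14, of the other sign at 35 nmol.

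Several p53 targets could not be measured. Tnfrsf10b, the mouse TRAIL receptor, had a level of -1.75 in the control and was not well above background at 35 or 70 nmol. Its signal was lower by at least 2.84-fold at 70 nmol and by at least 3.17-fold at 35 nmol, found by setting the control signal against the lowest signal well above background on the other array. Its other 2 probes were not well above background on any array, including the control, so this bound rests on 1 probe with a control signal of 80.0. Eda2r, a receptor of the TNF family, and Rrm2b, the p53-induced subunit of ribonucleotide reductase, were not well above background on any array.

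Among the 12 pro-apoptotic genes, Bak1 and Cycs had the largest differences. Bak1, which opens the outer mitochondrial membrane, had levels of 3.58 in the control, 3.95 at 35 nmol and 4.24 at 70 nmol. It was 0.66 higher at 70 nmol (1.58-fold, scanner error 0.20) and 0.37 higher at 35 nmol, and its second probe gave 0.82 and 0.35. Both probes thus ordered the arrays alike, but spike-in scaling turns the 35 nmol value to -0.05. The brightest Bak1 probe maps to chr17:26747611-26747670, minus strand. Cycs, somatic cytochrome c, had levels of 4.26 in the control, 4.59 at 35 nmol and 4.89 at 70 nmol and lay 0.63 and 0.33 above it at 70 and 35 nmol. Its other probes gave 0.36 and 0.18 at 70 nmol, against 0.07 and -0.07 at 35 nmol, so the size differs between probes by more than the scanner error of 0.20. Cytochrome c also has processed copies in the genome, and its probes may bind more than 1 of them.

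The remaining pro-apoptotic genes stayed within 1.5-fold. Bcl2l11 (Bim), the BH3-only protein of cytokine withdrawal, differed by 0.45 at 70 nmol and 0.25 at 35 nmol, and a dimmer probe gave 0.50 and 0.84. Bmf, released from the cytoskeleton under stress, differed by 0.24 and -0.08, and Bid, which caspase-8 cleaves, by 0.10 and 0.14. Bad, which growth factor signals silence, was dim at levels of -2.62 in the control, -3.14 at 35 nmol and -2.97 at 70 nmol. Its differences, -0.35 at 70 nmol and -0.52 at 35 nmol, turned to 0.10 and 0.06 with normexp, so its direction depends on the background correction. The caspases differed by at most 0.14 in size: Casp6 by -0.13 and -0.06, Casp8 by 0.09 and -0.14, and Casp9 by -0.05 and 0.05. Of the adaptors of death receptors, Tradd differed by 0.09 and 0.18 and Fadd by -0.05 and 0.15, but a dimmer Fadd probe gave -0.31 and -0.21. Diablo, which frees caspases from Xiap, differed by -0.24 and -0.11.

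Among the 9 anti-apoptotic genes, Bcl2l1 (Bcl-xL), which keeps Bax and Bak1 closed, stood out in size at 70 nmol. Its level was -1.09 in the control, -1.03 at 35 nmol and -0.25 at 70 nmol. This probe, at chr2:152472336-152472395 on the minus strand, was printed at 10 spots on each array. The spots at 70 nmol lay between -0.35 and -0.16, above every spot of the control (-1.31 to -0.99) and of 35 nmol (-1.13 to -0.89). The difference from the control was 0.84 at 70 nmol (1.79-fold, SD over spots 0.12) and 0.07 at 35 nmol. Of its dimmer probes, 1 gave 0.29 and 0.08, and the other was well above background on 1 array only. The mean over probes was therefore 0.56, and normexp gave 0.62. Fibroblast genes were higher on the same array as Bcl2l1, with a median of 1.73 over the 4 measured at 70 nmol and 0.06 at 35 nmol, and the part of these or of other cells in the Bcl2l1 value was not tested.

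**Figure D4:**
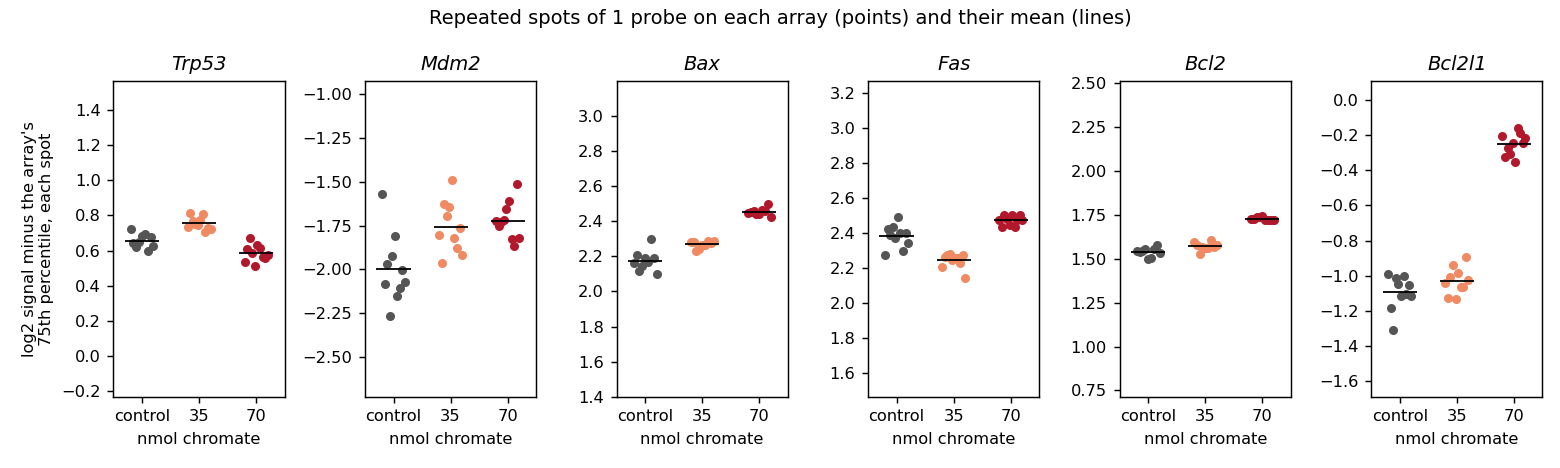
Single spots of the 6 probes that the array carries about 10 times are plotted as levels for control, 35 and 70 nmol, with lines at the means. The spots of Bcl2l1 at 70 nmol (mean -0.25) stand clear of the control (-1.09) and of 35 nmol (-1.03), while Trp53, Fas, Mdm2, Bax and Bcl2 differ from the control by at most 0.28 in size.

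The other survival genes mostly lay close to the control. Bcl2, the founder of its family, had levels of 2.55 in the control, 2.46 at 35 nmol and 2.43 at 70 nmol, a difference of -0.12 at 70 nmol and -0.09 at 35 nmol. A probe for another Bcl2 transcript, with 9 spots on each array, gave 0.19 and 0.03, and a dimmer one gave -0.38 and -0.60, so the probes disagree in sign at 70 nmol. Mcl1, a short-lived protein on which phagocytes rely, had levels of 6.91, 6.97 and 7.15 from the control upward and differed by 0.24 and 0.06. Its second probe gave 0.27 and 0.05, with the highest value at 70 nmol again. Cflar (c-FLIP) differed by 0.20 and 0.19 on its brightest probe. Its other probes ran from -0.30 to 0.12 at 70 nmol and from -0.41 to 0.16 at 35 nmol. The mean over Cflar probes was -0.05 and -0.01, so its direction depends on the probe. Bag1, a co-chaperone, differed by 0.09 and -0.06. Bcl2l2 (Bcl-w) differed by -0.14 and -0.02, but a second probe gave 0.85 and 0.52. Of the inhibitors of apoptosis proteins, Birc2 differed by -0.03 and -0.23, Birc3 by -0.04 at each dose, and Xiap, the direct caspase inhibitor, by -0.49 and -0.18. A second Xiap probe gave -0.26 and -0.07, likewise lowest at 70 nmol.

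Opposing members were also set against each other, since a difference between 2 genes' differences does not depend on how arrays are scaled. At 70 nmol Bak1 lay 0.78 above Bcl2 in its difference from the control, and Bax 0.40 above Bcl2, each with a scanner error of 0.29. Bak1 lay 0.41 above Mcl1, Pmaip1 0.41 and Bbc3 0.09. Bcl2l11 lay 0.40 below Bcl2l1 at 70 nmol (-0.40) and 0.18 above it at 35 nmol. Bak1 and Bax were not paired with Bcl2l1, whose own difference of 0.84 at 70 nmol was larger than theirs (0.66 and 0.28). The pairs therefore do not describe the balance of the family as a whole. Of these 6 pairs, each read from the brightest probes, only Bak1 over Bcl2 exceeded 2 scanner errors at 70 nmol. The disagreement among Bcl2 probes noted above bears on the Bak1 and Bcl2 pair. With the Bcl2 probe that gave 0.19 the value would be smaller, and with the one that gave -0.38 larger.

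**Figure D5:**
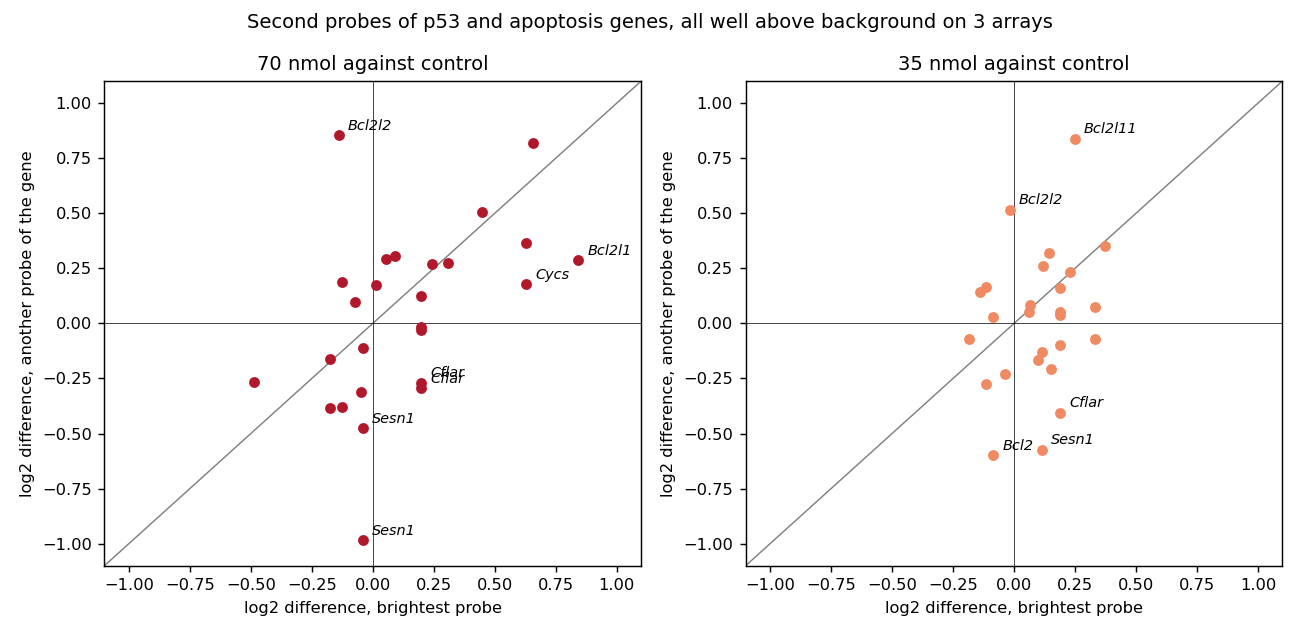
For 18 genes with more than 1 probe well above background on all 3 arrays, the log2 difference of each other probe (26 in all) is plotted against that of the brightest probe, at 70 nmol (left) and at 35 nmol (right), with the line of equality. At 70 nmol 18 of 26 and at 35 nmol 19 of 26 lie within 0.3 of the brightest probe. Other probes of Bcl2l2 (0.85) and Sesn1 (-0.98) lie farthest from the line at 70 nmol.

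Further genes of the pathway were counted in the same way. Of 31 measured genes in the wider p53 pathway, 0 were at least 2-fold higher and 1 lower at 70 nmol, and of 33 at 35 nmol 0 were higher and 0 lower. The lower one was the matrix protein Thbs1, with levels of 2.36 in the control, 2.15 at 35 nmol and 1.07 at 70 nmol. Its difference of -1.29 at 70 nmol was matched by -1.11 and -1.23 on its other probes. Rprm, a p53 target of G2 arrest, was below that detection limit at 70 nmol, lower than the control by at least 1.73-fold, while at 35 nmol it was 0.75 higher. Of 33 measured genes for other death receptors, caspases and mitochondrial death factors, 0 were 2-fold higher or lower at either dose. Bok, a relative of Bax, was detected at both doses but not in the control, and stood at least 2.53-fold above it at 70 nmol and at least 1.35-fold at 35 nmol. Of 24 other survival genes, 0 passed 2-fold at either dose. Lists this small allow no statement that they stand apart from the rest of the array. The medians of these lists at 70 nmol were 0.04, 0.07 and 0.14, beside 0.04 for all genes.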

How the data were processed

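RNA of peritoneal macrophages was hybridised to 3 one-colour Agilent arrays, 1 for each group. Spot intensities were read by the authors in Agilent Feature Extraction 10.5.1.1 (background subtracted, spatial trend removed) with probes placed on build mm8, per the file headers. The deposited value table is on the log2 scale: each of its columns equals the log2 processed signal minus a constant, within 0.01 for 99.8% or more of probes well above background. Here the log2 processed signal was centred on each array's 75th percentile, outlier spots were left out, and spots of a probe were averaged. A gene was read from its brightest probe well above background on at least 1 array, and counted as measured where that probe carried the flag on each array compared and was not saturated. Probes were named through RefSeq accessions of GRCm38.p6 (24367 probes), then symbols or unique synonyms. With 1 array in each group no test was made, and genes were counted at 2-fold and 1.5-fold. The number of arrays limits the precision.

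The genes and lists were chosen with earlier results of these data known. All genes that differed at least 1.5-fold or were seen on some arrays only were described, as were Trp53, Mdm2, Bcl2 and Mcl1, and further pathway genes were named at 2-fold. Alternatives were normexp (offset 50), quantile and cyclic loess normalisation, looser and stricter filters (either array, or 4 times the lowest signal well above background), the mean over probes, the value table and spike-in scaling. The counting steps were tested on simulated data. Software was R 4.3.3 (limma 3.58.1) and Python 3.11.15 (numpy 2.4.6; pandas 2.3.3; matplotlib 3.10.9).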

Additional observations from a re-analysis of the deposited data

Results flagged for a closer look

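Perp is listed because its differences from the control had opposite signs at the 2 doses, 0.11 at 70 nmol and -0.94 at 35 nmol, while the doses themselves differed by at least 1.5-fold. With 1 array in each group, the difference between the doses was not tested. At 70 nmol the sign turned to -0.26 under spike-in scaling, and then both doses lay below the control.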

How the results depend on the processing

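No paired analysis was possible because each group had 1 array. Counts at 2-fold were small, and these settings changed them. At 70 nmol against control, 0 members were higher and 0 lower; 1.5-fold gave 4 and 1, and the looser filter (Tnfrsf10b) and spike-in scaling (Gadd45a) gave 1 lower each. At 35 nmol, 0 and 0 became 1 lower at 1.5-fold and under spike-in scaling (Perp both times) and 1 with the looser filter (Tnfrsf10b). Between the doses, 1 higher (Perp) became 0 with normexp (0.93) and 2 at 1.5-fold. The 4 higher and 1 lower at 1.5-fold and 70 nmol became 1 and 0 with normexp, 3 and 1 with quantile normalisation, 2 and 1 with cyclic loess or the mean over probes, 4 and 2 with the looser filter and 0 and 4 with spike-in scaling. At 35 nmol the 1 lower at 1.5-fold (Perp, called under every setting tried) became 2 with the looser filter and 5 with spike-in scaling, and between the doses normexp and the mean over probes lost Bcl2l1. Spike-in scaling moved the medians of p53 targets, pro-apoptotic and anti-apoptotic genes to -0.26, -0.28 and -0.39 at 70 nmol (all genes -0.32) and to -0.31, -0.32 and -0.46 at 35 nmol (all genes -0.38). Between the doses, the pro-apoptotic median of 0.06 was -0.041 with the stricter filter and -0.055 with the mean over probes, and the anti-apoptotic median of 0.01 was 0.11 with the mean over probes. Over all genes, 204 higher and 136 lower at 70 nmol became 80 and 48 with normexp, 109 and 50 with the stricter filter, 442 and 761 with the looser one and 87 and 404 with spike-in scaling. The 143 and 38 at 35 nmol became 55 and 10, 50 and 13, 399 and 532, and 72 and 251 in that order. The 114 and 89 between the doses became 39 and 20, 52 and 23, 375 and 478, and 131 and 75. The other 108 values of these counts and medians stayed within 1.5 times the count or within the SD between 2 probes. The stricter filter left 37 members measured at 70 nmol, without the dim Bad, Polk and Xiap, and Bad and Polk turned sign there with normexp. Mesothelial markers were measured for 2 of 5 genes, too few to describe that cell type.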

Other observations

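Genes of necroptosis, a form of death that runs without caspases, were picked out here after their values were seen. The kinase Ripk3, which starts it, had levels of 3.30 in the control, 3.37 at 35 nmol and 3.96 at 70 nmol, a difference of 0.66 at 70 nmol and 0.07 at 35 nmol. Mlkl, the pore-forming protein it phosphorylates, differed by 0.50 and 0.23. The kinase Ripk1 differed less, by 0.29 and 0.02. Its other probes gave 0.21 and -0.19 at 70 nmol, and -0.18 and -0.05 at 35 nmol. Tnf and its receptor Tnfrsf1b differed by 0.90 and 0.66 at 70 nmol and by 0.34 and 0.37 at 35 nmol. A second Tnfrsf1b probe gave 0.35 and -0.08. Tnfrsf1a, the other Tnf receptor counted, differed by 0.19 at 70 nmol and -0.08 at 35 nmol. None of these reached 2-fold, where 1.63% of all measured genes were higher at 70 nmol and 1.12% at 35 nmol. At 70 nmol Ripk3, Tnf and Tnfrsf1b passed 1.5-fold upward, as did 5.55% of all measured genes. Spike-in scaling, which shifts every difference by -0.42 at 35 nmol, puts all of these genes below the control at that dose.

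Probes of a gene disagreed for some genes. Sesn1 differed by -0.04 at 70 nmol on its brightest probe and by -0.98 and -0.47 on the dimmer ones. Mdm4, the partner of Mdm2, differed by 0.18 at 70 nmol and -0.44 at 35 nmol on its brightest probe, and its other probes gave -0.26 and -0.32 at 70 nmol.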
